A study of Mus musculus with 6 samples.

Results

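The 10 genes described here encode ligands and receptors of the vascular endothelial growth factor (VEGF) and angiopoietin families, read from the liver transcriptomes of control and Blnc1 liver-specific knockout (LKO) mice. They were taken by symbol (Vegfa, Vegfb, Vegfc, Pgf, Flt1, Kdr, Flt4, Nrp1, Angpt2 and Tek), and all 10 were found among the 17460 rows of the table. Livers came from 3 control and 3 Blnc1 LKO mice of the C57BL/6 strain, 9 months old, and every mouse had been on the NASH diet (D09100301) for 24 weeks. Per the study's methods, LKO mice are Cas9 transgenic mice injected by tail vein with an adenovirus carrying a pair of single-guide RNAs against the long noncoding RNA Blnc1. For the high-fat diet feeding the controls were described as Cas9 transgenic mice given a GFP adenovirus, and the labels of the livers sequenced here say only control. The study describes non-parenchymal liver cells as poorly transduced by adenovirus. Endothelial cells, which carry most of these receptors, are non-parenchymal cells.

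VEGF-A is secreted by many cells, hepatocytes among them, and signals mainly through VEGFR2, the product of Kdr, on endothelial cells. VEGFR1 (Flt1) binds VEGF-A, VEGF-B and placental growth factor and can act as a decoy, VEGFR3 (Flt4) is the receptor for VEGF-C and VEGF-D, and neuropilin-1 (Nrp1) is a co-receptor. The angiopoietins bind the receptor Tie2 (Tek), where angiopoietin-1 acts as an agonist and angiopoietin-2, released by activated endothelium, often opposes it. In the liver this traffic between hepatocytes and sinusoidal endothelial cells maintains the open-walled sinusoids.

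The deposited values are normalized read counts, that is, reads on a gene divided by a size factor for the liver. Each liver had between 65384969 (LKO replicate 1) and 89350181 (LKO replicate 3) reads on the listed genes. Control and LKO livers were set against each other by a limma fit to log2(value + 1), in which 1 of the 17297 genes tested (0.00578%) passed an adjusted p under 0.05. Fold changes are LKO minus control on this scale, on which differences of low genes come out too small, and SE is their standard error. Each liver is counted as a separate replicate. The table has no row named Blnc1, so its loss was not measured here. The study treats the neighbouring protein-coding gene Paqr9 as separate from Blnc1, although RefSeq lists Blnc1 among its other names. The Paqr9 value ranged from 15156 to 18810 in control and from 15663 to 20027 in LKO livers and is no check of the deletion. Hepatocyte markers were high in every liver, with Alb at 3780900 to 4651990, except Ass1, which was listed at 4.76 to 12.1. Alb and Ass1 were named after their values were seen.

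None of the 10 genes passed a threshold adjusted across the table, and the adjusted p ranged from 0.824 to 1.00 (limma). At an unadjusted p under 0.05 there was 1 member, Flt4, against 5.68% of all genes tested (2.74% lower and 2.94% higher in LKO livers). The mean was lower in LKO livers for 8 of the 10 genes and higher for Vegfa and Nrp1, with 50.4% of all genes below 0. The median log2 fold change of the members was −0.10, and that of all genes was −0.001. In 2 members, Flt4 and Vegfc, every LKO liver lay below every control liver, which was the case for 5.28% of all genes. No member had every LKO liver above every control liver, as 5.35% of all genes did. All 10 members passed the filter on low values in both groups. DESeq2, edgeR and voom on the recovered reads called 0 of the 10 members as well, each with 1 member at an unadjusted p under 0.05.

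**Figure D1:**
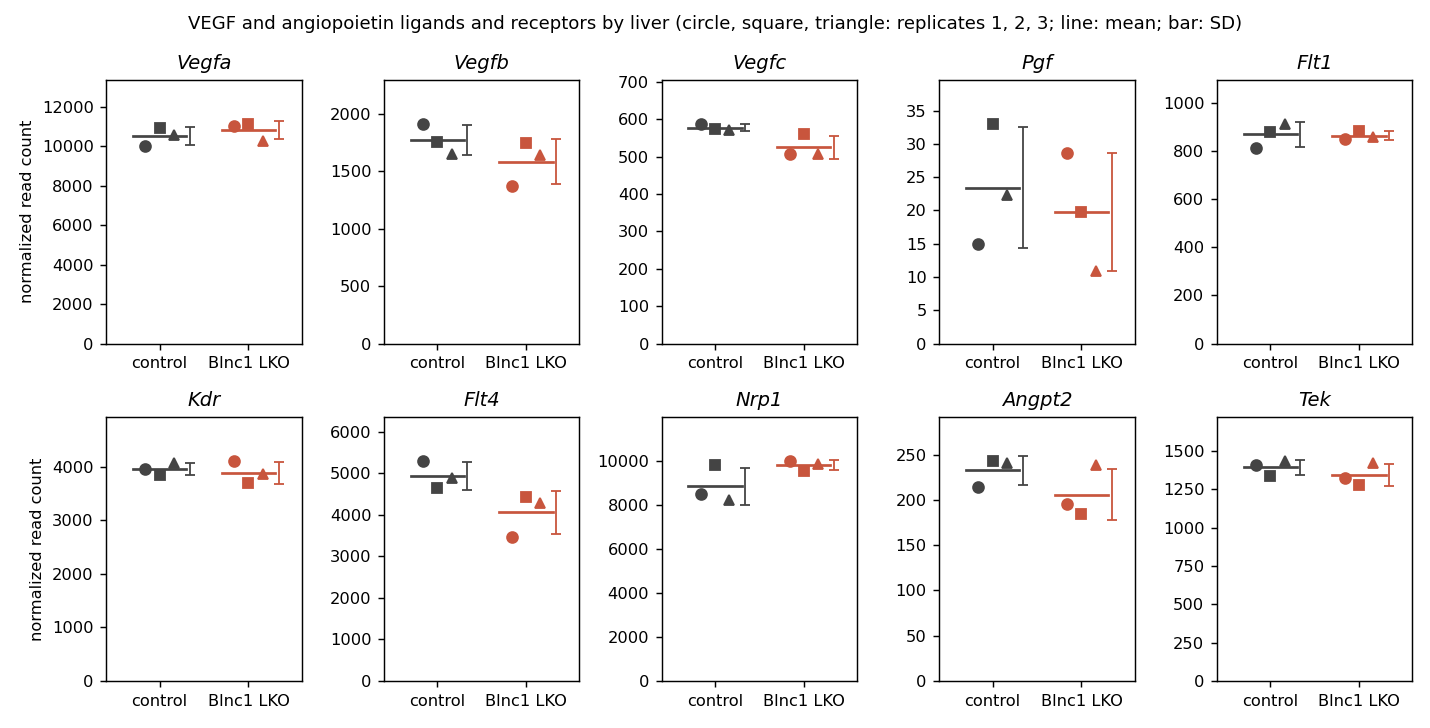
Normalized read count of each of the 10 genes in the 3 control (grey) and 3 Blnc1 LKO (red) livers, on axes that start at 0, with the group mean as a line and the SD as a bar. For Flt4 and Vegfc the LKO points all lie below the control points, and for the other 8 genes the groups overlap.

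Before the comparison of the groups, the genes were set in order of level per length, as RPKM (reads per kilobase of exon, scaled to the reads of the library). In control livers Vegfa was highest, at 33.0 ± 1.46 (SD, n = 3), followed by Vegfb at 14.9 ± 1.17 and Nrp1 at 12.2 ± 1.21 (SD, n = 3 each). Flt4 followed at 8.07 ± 0.546 and Kdr at 5.90 ± 0.142, with Tek at 3.98 ± 0.126 and Vegfc at 3.17 ± 0.0615 (SD, n = 3 each). At the low end were Flt1 at 0.866 ± 0.0478, Angpt2 at 0.849 ± 0.0568 and Pgf at 0.109 ± 0.0425 (SD, n = 3 each). The ligand gene Vegfa gave the most abundant transcript of the 10, and the mean of Flt4 was higher than that of Kdr in control livers. Over all 6 livers the neighbours Vegfb and Nrp1, Flt4 and Kdr, and Flt1 and Angpt2 overlapped and are not ordered beyond their spread. The length is the union of all annotated exons, so a gene with rarely used exons, such as a gene with a soluble short form, is set too low.

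**Figure D2:**
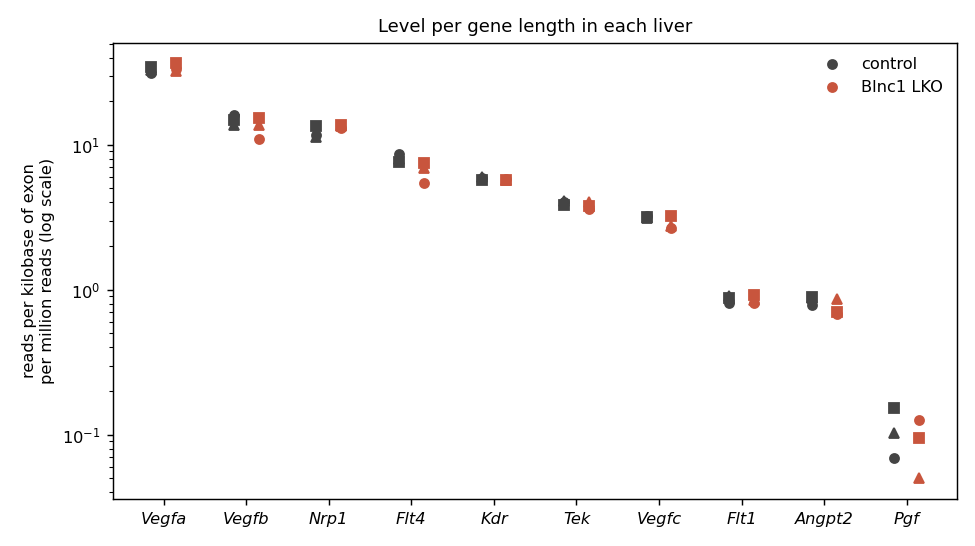
RPKM on a log axis for the 10 genes in each control (grey) and Blnc1 LKO (red) liver, ordered by the control mean. Levels run from 33.0 for Vegfa to 0.109 for Pgf in control livers, and Flt1 and Angpt2 overlap.

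Among the 4 member ligands of the VEGF family, Vegfa had the ratio of group means closest to 1. Vegfa lies on the − strand of chromosome 17 (46016993 to 46032369, GRCm38, as are all positions here). Control livers had normalized read counts of 10005, 10916 and 10588, and LKO livers of 11043, 11146 and 10291. The ranges overlapped over most of their length. The log2 fold change was 0.04 (SE 0.058), with a 95% confidence interval of the ratio from 0.940 to 1.13 (adjusted p = 0.978, limma). The counts do not separate the splice forms of VEGF-A, whose products differ in their binding to heparin.

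Vegfb, which encodes a ligand of VEGFR1 alone among the VEGF receptors, lies on the − strand of chromosome 19 (6982473 to 6987651). Its values were 1914, 1758 and 1649 in control and 1370, 1746 and 1638 in LKO livers. LKO replicate 1 lay far below the other livers, whereas replicates 2 and 3 lay within or just under the control range. The log2 fold change was −0.17 (SE 0.099, limma adjusted p = 0.937), and without LKO replicate 1 it was −0.07.

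Vegfc encodes the ligand of VEGFR3, best known for the growth of lymphatic vessels, and lies on the + strand of chromosome 8 (54077606 to 54187096). It had 588, 573 and 571 in control and 508, 560 and 506 in LKO livers. The groups did not overlap, although LKO replicate 2 was close to the lowest control. The mean in LKO livers was 0.909 of control, and the log2 fold change was −0.14 (SE 0.081, limma adjusted p = 0.932), with a 95% confidence interval of the ratio from 0.799 to 1.03.

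Pgf, the gene of placental growth factor on the − strand of chromosome 12 (85166635 to 85177790), was the lowest of the 10 members, with 13 to 31 reads per liver. Its values were 14.9, 33.0 and 22.4 in control and 28.6, 19.7 and 10.9 in LKO livers. The ranges of the groups overlapped from 14.9 to 28.6. The interval of the ratio ran from 0.431 to 1.6, so neither a ratio of 1 nor the other ratios between these bounds were excluded.

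Among the receptors, Kdr and Flt1 had nearly equal group means, that of Flt4 was lower and that of Nrp1 higher in LKO livers. Kdr lies on the − strand of chromosome 5 (75932827 to 75978458) and had 3956, 3841 and 4070 in control and 4102, 3692 and 3867 in LKO livers. LKO livers held both the highest and the lowest value. The log2 fold change was −0.03 (SE 0.058, limma adjusted p = 0.988), with an interval of the ratio from 0.897 to 1.08. Flt1, also on the − strand of chromosome 5 (147561604 to 147726011), had 814, 880 and 914 in control and 852, 884 and 857 in LKO livers. All LKO values lay inside the control range. Its log2 fold change was −0.01 (SE 0.072, limma adjusted p = 1.00), with an interval of the ratio from 0.888 to 1.12. The counts do not separate the full-length receptor from the soluble form of VEGFR1.

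Promoters of the members were read from RefSeq (GRCm38.p6) as the 250 bases before the annotated start, for the 9 members that matched by symbol, some with more than 1 start. Those of Kdr and Flt1 are shown as the promoters of the main VEGF-A receptors, chosen after the values of the genes were known, and no comparison of the groups bears on them. Capitals mark the letters GGAAA or GGAAG of the ETS core on either strand, 5′ to 3′ along the gene.
Kdr, chr5:75978456-75978705, − strand: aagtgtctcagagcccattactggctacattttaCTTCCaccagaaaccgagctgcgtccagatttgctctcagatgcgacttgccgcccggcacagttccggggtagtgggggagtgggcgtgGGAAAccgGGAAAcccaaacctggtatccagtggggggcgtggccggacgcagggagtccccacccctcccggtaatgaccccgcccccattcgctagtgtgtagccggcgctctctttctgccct
Flt1, chr5:147726012-147726261, − strand: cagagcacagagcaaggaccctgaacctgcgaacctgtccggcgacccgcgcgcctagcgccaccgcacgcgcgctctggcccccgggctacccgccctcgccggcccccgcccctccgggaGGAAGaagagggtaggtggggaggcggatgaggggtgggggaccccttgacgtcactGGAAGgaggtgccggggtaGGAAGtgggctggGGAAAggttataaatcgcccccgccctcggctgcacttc
Kdr held 3 such matches and Flt1 4. Nrp1 also held 4, the windows of Vegfa 2 and 3, and Flt4 and Vegfb 1 each, while those of Tek, Vegfc and both starts of Pgf held 0. Of all 32851 windows of this length, 84.1% held at least 1, so most promoters share this feature. The hypoxia response core, ACGTG or GCGTG on either strand, was found in 38.6% of all windows. It occurred 2 times in the windows of Kdr and Vegfb and 1 time in those of Flt1 and Nrp1. Of the windows of Vegfa 1 held 2 and the other 0, of those of Pgf 1 held 1 and the other 0, and those of Flt4, Tek and Vegfc held 0. The Vegfa window with 2 (46025164 to 46025413) lies inside the span of the gene, before an internal start. Annotated exons of Vegfa cover 218 of its 250 bases, against 0 in the other window. The window of Flt4 and both of Pgf also lie in annotated exons of their genes, over all 250 bases. No 2 matches of the different motifs overlapped in Kdr or Flt1.

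Flt4, on the + strand of chromosome 11 (49609263 to 49652739), was the member with the smallest p. It had 5292, 4635 and 4876 in control livers and 3473, 4434 and 4277 in LKO livers. Every LKO liver lay below every control liver, and LKO replicate 1 was lowest by a wide step. The mean was 4935 ± 332 in control and 4061 ± 516 in LKO livers (SD, n = 3 each), a ratio of 0.823. The log2 fold change was −0.29 (SE 0.096), with an unadjusted p of 0.0161 and an adjusted p of 0.824 (limma). Since 5.68% of all genes had an unadjusted p under 0.05, 1 of 10 members at that level is near the share over the whole table. Without LKO replicate 1 the log2 fold change was −0.18, with an unadjusted p of 0.0277 in limma, and without control replicate 1 it was −0.24, with an unadjusted p of 0.0637.

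Nrp1, on the + strand of chromosome 8 (128358604 to 128503363), had 8488, 9797 and 8229 in control and 9987, 9548 and 9838 in LKO livers. The LKO livers were close to each other, and control replicate 2 lay among them. The mean was 8838 ± 841 in control and 9791 ± 223 in LKO livers (SD, n = 3 each), and the log2 fold change was 0.15 (SE 0.071, limma adjusted p = 0.891). The unadjusted p was 0.0637 in limma. Leaving out control replicate 2, the control that lay among the LKO livers, gave a log2 fold change of 0.23 (unadjusted p = 0.00787, limma). Without control replicate 1 or 3 the log2 fold change was 0.12 and 0.10 (unadjusted p = 0.186 and 0.223, limma). With 1 LKO replicate left out, the unadjusted p ran from 0.0694 to 0.122 (limma). Neuropilin-1 is carried by several liver cell types besides endothelium, and it also binds semaphorins.

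Of the angiopoietin axis, Angpt2 lies on the − strand of chromosome 8 (18690263 to 18741562), within the span of Mcph1 on the other strand, with which it shares 0 exon bases. Its values were 214, 243 and 241 in control and 195, 184 and 238 in LKO livers. LKO replicates 1 and 2 were below every control and replicate 3 among them. The log2 fold change was −0.18 (SE 0.13, limma adjusted p = 0.968), with an interval of the ratio from 0.712 to 1.09. Tek, the gene of the receptor Tie2 on the + strand of chromosome 4 (94739289 to 94874976), had 1411, 1339 and 1435 in control and 1323, 1280 and 1420 in LKO livers. These ranges overlapped, and the log2 fold change was −0.06 (SE 0.066, limma adjusted p = 0.973). The ratio of the means of Tek was 0.961, with an interval from 0.865 to 1.07.

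Around these members stand their nearest relatives, of which 15 were tested. Of these, 12 had a log2 fold change below 0 (50.4% of all genes) and 3 above, none passed the adjusted p, and the median was −0.06. Tie1, the partner receptor of Tie2, had 2010, 1968 and 2086 in control and 1783, 1906 and 1846 in LKO livers. Its groups did not overlap (5.28% of all genes on the lower side), and the log2 fold change was −0.13 (SE 0.057, limma adjusted p = 0.873). It was 1 of the 2 relatives at an unadjusted p under 0.05 (5.68% of all genes). The other was Sema3e, a ligand of plexin-D1, at 6.53, 7.46 and 11.7 in control and 16.7, 17.9 and 12.5 in LKO livers (adjusted p = 0.860, limma). These values stood on 7 to 19 reads per liver. Tie1 was at that level in 7 of 16 alternatives and Sema3e in 8 of 15, and neither was with a replicate block, without LKO replicate 1 or without control replicate 1 or 2.

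Angpt1, the agonist of Tie2, had 243, 322 and 374 in control and 299, 359 and 247 in LKO livers, and its exons share 737 bases (14.2% of its exon length) with the antisense gene Gm17473. As the library kit does not mark strand, reads of that stretch cannot be told apart. Angpt4 had 1 to 9 reads per liver. Figf, the older symbol of Vegfd, encodes the other ligand of VEGFR3, and its mean was 120 ± 19.1 in control and 123 ± 16.5 in LKO livers (SD, n = 3 each). Nrp2, a co-receptor of VEGFR3, was at 2646 ± 104 and 2607 ± 84.6, and Ptprb, the phosphatase that acts on Tie2, at 5895 ± 320 and 5875 ± 501 (SD, n = 3 each). Their log2 fold changes were 0.03 for Figf, −0.02 for Nrp2 and −0.01 for Ptprb. Of the plexins, which carry semaphorin signals, Plxnd1 had a log2 fold change of −0.15 and Plxna1 of −0.05. The exons of Plxna1 share 970 bases (10.7% of its exon length) with the antisense gene Gm26811, with the same limit as for Angpt1. Apart from Sema3e, the class 3 semaphorins Sema3a, Sema3b, Sema3c, Sema3d, Sema3f and Sema3g had log2 fold changes from −0.33 to 0.02, with adjusted p from 0.968 to 0.999 (limma).

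**Figure D3:**
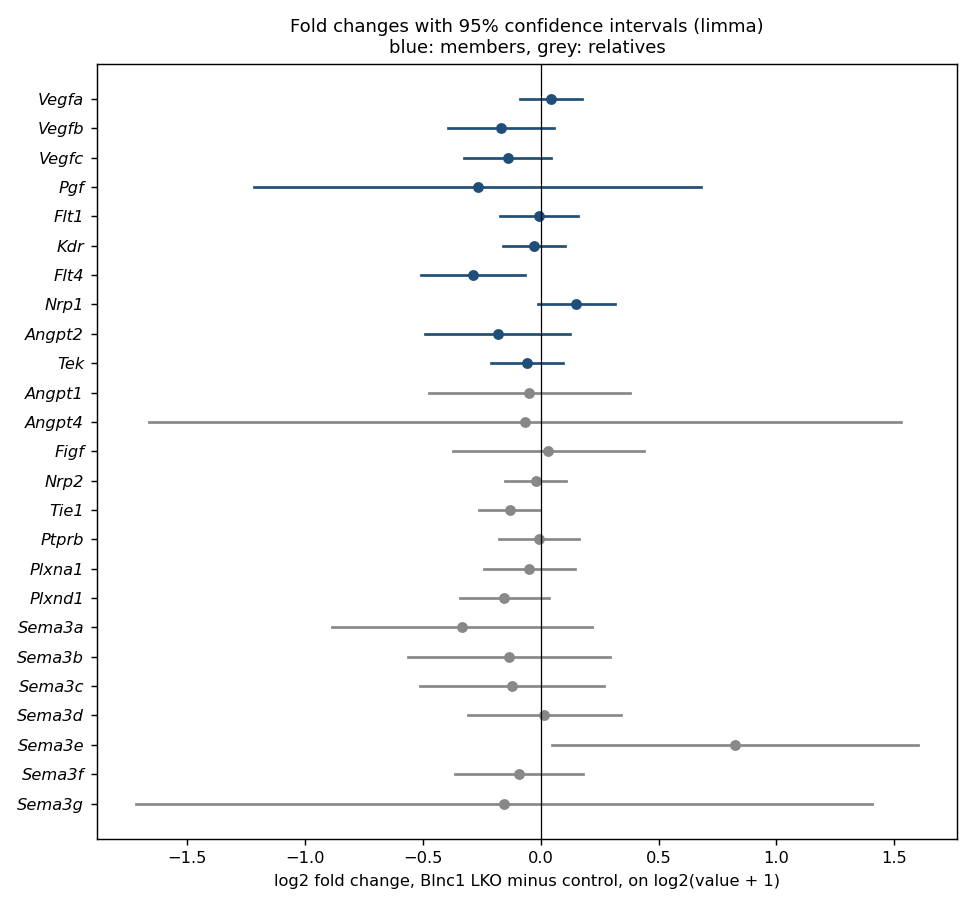
Log2 fold change of the 10 members (blue) and 15 relatives (grey), Blnc1 LKO minus control, as a point with its 95% confidence interval as a line. Of the members, the interval of Flt4 alone lies wholly below 0 (−0.51 to −0.07), and none of the 25 genes had an adjusted p under 0.05 in limma.

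Ratios between genes of the same liver do not depend on the scaling between livers, and 7 were compared by a two-sided exact permutation test, which cannot give a p below 0.1 for 3 livers against 3. Kdr relative to Pecam1, a marker shared by all endothelial cells, was 1.37, 1.34 and 1.34 in control and 1.63, 1.41 and 1.44 in LKO livers. This was the only one of the 7 ratios without overlap between the groups, with a log2 difference of 0.14 (exact p = 0.1, adjusted p = 0.467). Vegfc relative to Flt4 was 0.111, 0.124 and 0.117 in control and 0.146, 0.126 and 0.118 in LKO livers (exact p = 0.2, adjusted p = 0.467). The ligand and its receptor thus were both lower in the mean, and their ratio overlapped between groups. Angpt2 relative to Angpt1, the balance that sets the state of Tie2, ranged from 0.644 to 0.881 in control and from 0.513 to 0.963 in LKO livers (exact p = 0.8, adjusted p = 0.9). The log2 differences of Vegfa to Kdr and Flt1 to Kdr were 0.07 and 0.02 (exact p = 0.5 and 0.9), and those of Angpt2 to Tek and Pgf to Vegfa were −0.13 and −0.33 (exact p = 0.2 and 0.6). The adjusted p of these 4 ranged from 0.467 to 0.9.

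**Figure D4:**
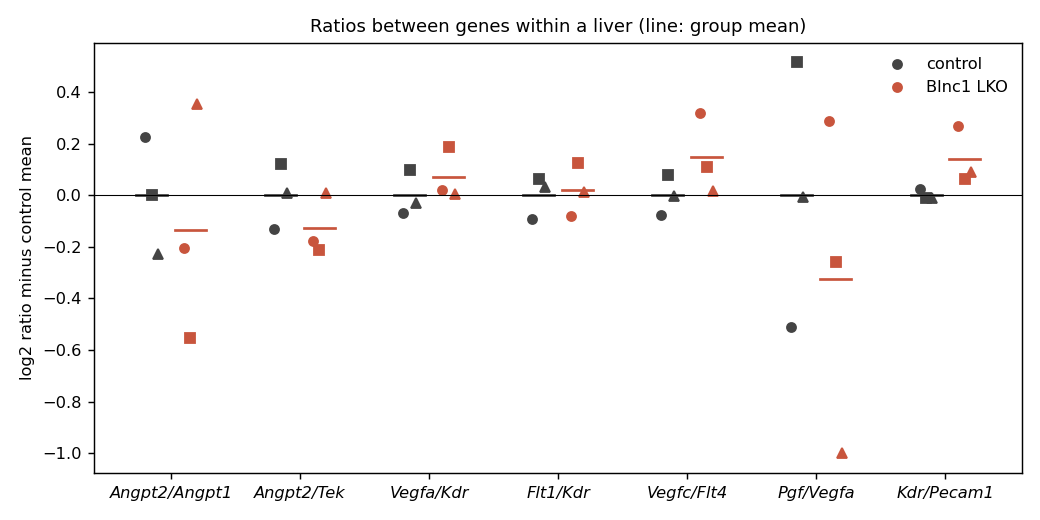
Log2 ratio of 7 gene pairs in each liver minus the control mean of that pair, for control (grey) and Blnc1 LKO (red) livers, with circle, square and triangle for replicates 1 to 3 and a line for the group mean. The ratio of Kdr to Pecam1 is the pair in which the 3 LKO points all lie above the 3 control points.

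In the ratio of Kdr to Pecam1, the mean of Kdr was 0.983 and that of Pecam1 0.892 of control. Of 12 pan-endothelial markers, 12 had a log2 fold change below 0 (50.4% of all genes). Of them, 4 had an unadjusted p under 0.05 (2.74% of all genes were lower at that level), and 0 passed the adjusted p in limma. Their summed value ranged from 28318 to 29940 in control and from 24788 to 27747 in LKO livers, and the ranges did not overlap. LKO replicate 1 was lowest, as for Flt4 and Vegfb, and without it 12 of 12 were still lower, with a median log2 fold change of −0.07 in place of −0.11. The 4 at an unadjusted p under 0.05 became 1 without control replicate 3. Of all 17297 genes, 330 were then lower at that level, against 474 in the main fit. Pecam1 had a mean of 2928 ± 95.7 in control and 2611 ± 84.8 in LKO livers, and Cdh5, the cadherin of endothelial junctions, 3348 ± 60.6 and 3028 ± 18.0 (SD, n = 3 each). Cd93, an endothelial surface lectin, had the smallest p of the markers, with a log2 fold change of −0.34 (adjusted p = 0.548, limma). It was the 1 marker of the 12 called by DESeq2 on the recovered reads (adjusted p = 0.0429), which called 84 of all 17297 genes. In whole liver, fewer endothelial cells and less RNA per cell cannot be told apart, and the part of these markers in the values of Flt4 and Kdr was not tested.

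The markers of sinusoidal endothelium were split, with 6 of 12 lower and 6 higher and a median log2 fold change of −0.04. At an unadjusted p under 0.05, 2 were lower (2.74% of all genes) and 1 higher (2.94%), and 0 passed the adjusted p in limma. Lyve1, a hyaluronan receptor of sinusoids and lymphatics, had a mean of 2407 ± 350 in control and 1634 ± 371 in LKO livers (SD, n = 3 each, adjusted p = 0.695, limma). Stab1, a scavenger receptor, had a log2 fold change of −0.15, and Ehd3 one of 0.19 (adjusted p = 0.857 and 0.787, limma). The summed values overlapped, at 37441 to 41004 in control and 37729 to 38906 in LKO livers, and every defining sinusoidal marker was read in every liver. Of 10 markers of other vessels and of capillarized sinusoids, 7 were lower (50.4% of all genes). Plvap, a protein of fenestral diaphragms, alone had an unadjusted p under 0.05 (5.68% of all genes), with a log2 fold change of −0.23 (adjusted p = 0.840, limma). Of 4 lymphatic markers, Mmrn1 had a log2 fold change of 0.90 (adjusted p = 0.873, limma) at a mean of 28.9 in control livers, while Prox1 and Reln, which other liver cells also express, were at −0.04 and 0.06.

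Of 20 genes that act downstream of the VEGF and Tie receptors, 17 had a log2 fold change below 0 (50.4% of all genes), with a median of −0.07, and 0 passed the adjusted p. Shb, an adaptor that binds VEGFR2, was the only one at an unadjusted p under 0.05 (5.68% of all genes), with 2162 ± 180 in control and 1777 ± 64.0 in LKO livers (SD, n = 3 each, adjusted p = 0.619, limma). Without LKO replicate 2 there were 4 lower and 1 higher at that level. Of all 17297 genes, 941 were then lower and 904 higher at it, against 474 and 509 in the main fit. Hspb1, a small heat shock protein phosphorylated after VEGF, had a log2 fold change of −0.29, and Plcg1, the phospholipase recruited by VEGFR2, one of 0.12 (adjusted p = 0.899 and 0.927, limma). The summed value of the 20 genes was 68940.3 to 70362.3 in control and 65708.6 to 68218.5 in LKO livers, without overlap.

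Genes of tip and stalk cells and of the vessel response had lower means in LKO livers in all but 1 case. Of 25 genes, 24 had a log2 fold change below 0, with a median of −0.19 against −0.001 over all genes. In 7 of them the groups did not overlap (5.28% of all genes), 5 had an unadjusted p under 0.05 (2.74%), and 0 passed the adjusted p in limma, edgeR or DESeq2. Like the other lists here, this one was chosen with earlier results of these data known, so its counts are a description. Esm1, an endothelial proteoglycan induced by VEGF, had 770, 946 and 731 in control and 476, 558 and 662 in LKO livers. These groups were apart, and the log2 fold change was −0.53 (SE 0.14, limma adjusted p = 0.619). Cxcr4, a chemokine receptor of tip cells that leukocytes also carry, had a log2 fold change of −0.31, and Erg, an ETS factor of endothelium, one of −0.24 (adjusted p = 0.751 and 0.824, limma). The other two of the 5, named after their values were seen, were Sox18 and the Notch ligand Dll4, with log2 fold changes of −0.35 and −0.19. The summed value of the list was 21093 to 22731 in control and 17455 to 20813 in LKO livers, lowest in LKO replicate 1, and both this list and the pan-endothelial markers were lower. Without LKO replicate 1, an alternative chosen after these sums were seen, 19 of 25 were lower, with a median of −0.10 and 4 at an unadjusted p under 0.05. Without LKO replicate 2 the median was −0.30 with 9 at that level, and without either control replicate 1 or 3 there were 3. Of all 17297 genes, 941 were lower at that level without LKO replicate 2, against 474 in the main fit. The count over all genes was 305 without control replicate 1, 330 without control replicate 3 and 515 without LKO replicate 1. The part of LKO replicate 1 and of the endothelial markers in the other members was not tested.

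**Figure D5:**
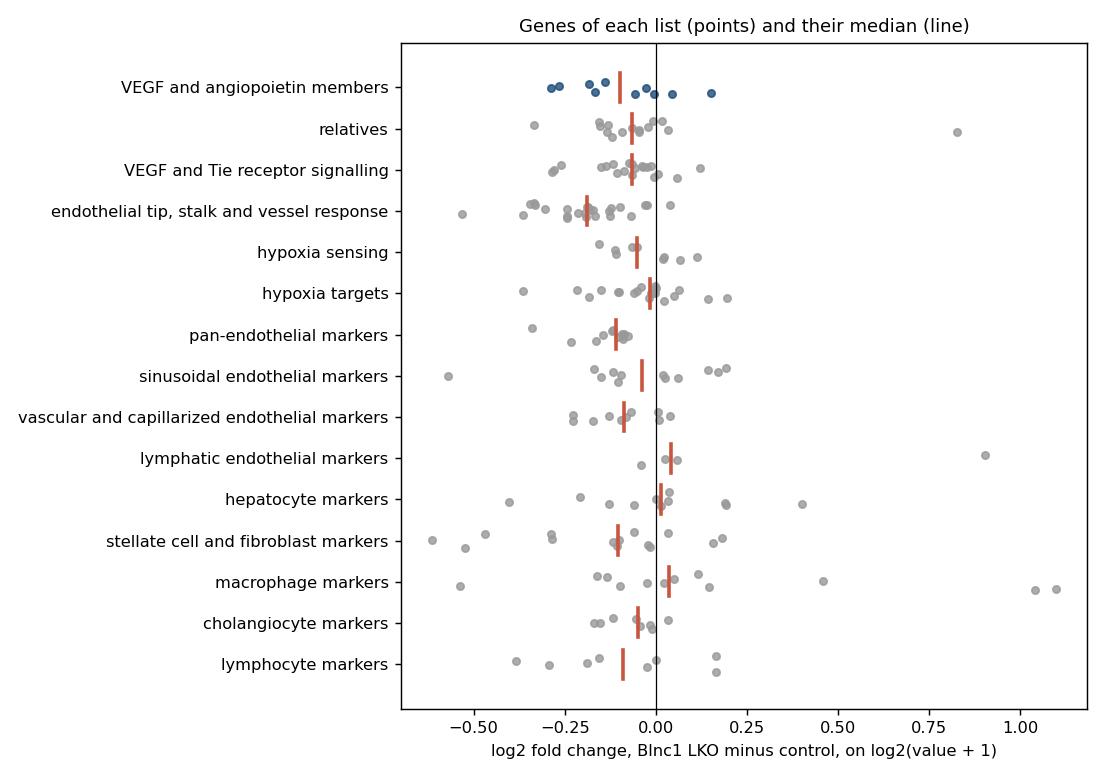
Log2 fold change, Blnc1 LKO minus control, of each tested gene (points) in the 10 members (blue) and in each list of related genes or cell type markers (grey), with the median of each list as a red line. The medians run from −0.19 for the genes of tip and stalk cells and vessel response to 0.04 for the lymphatic markers.

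Hypoxia-inducible factors are known activators of Vegfa, Flt1 and Angpt2. Of the 9 genes of oxygen sensing, 5 were lower and 4 higher. Their summed value was 41094.0 to 41955.3 in control and 38070.5 to 40438.3 in LKO livers, without overlap. Epas1, which encodes HIF-2α, had 17872, 18730 and 18201 in control and 15264, 17002 and 16978 in LKO livers. Its groups did not overlap, and the log2 fold change was −0.16 (SE 0.061, limma adjusted p = 0.851). On the other side, Vhl and Hif1an, which hydroxylates the factors, had every LKO liver above every control liver. Hif1an was named after its values were seen. Groups were thus apart in 1 gene of the 9 on the lower side (5.28% of all genes) and 2 on the higher side (5.35%). Egln1, an oxygen-sensing hydroxylase, had a log2 fold change of −0.11, and Vhl, which marks the factors for degradation, one of 0.11. Of 20 hypoxia-inducible genes, 15 were lower (50.4% of all genes) and 5 higher, with a median log2 fold change of −0.02, and 0 had an unadjusted p under 0.05. Those with the smallest p were Ddit4, Hk2 and Pfkfb3, at −0.22, −0.37 and 0.19.

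Across the 6 livers, the 5 genes whose log2 values followed Kdr most closely were Smc5, Dennd5b, Riok2, Slc25a15 and Suclg2, with Pearson's r from 0.988 to 0.995 among 12863 genes with a mean CPM (reads scaled to the library total) of at least 1. None of them stands in the lists used here, and the points share their libraries and scaling, so these values are a description over 6 livers. Of the 8 other members that reached this level, r with Kdr ran from −0.53 for Vegfb and −0.34 for Nrp1 to 0.50 for Tek. Of the endothelial genes looked at after their values were seen, r was 0.90 for Ptprb, 0.88 for Dnase1l3, 0.76 for Clec4g, 0.67 for Oit3, 0.29 for Cdh5, 0.20 for Pecam1 and 0.06 for Tie1.

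Markers of other liver cells are given beside the members since whole livers were sequenced. Of 11 hepatocyte markers, 7 were higher and 4 lower, and Cyp2e1, an ethanol-metabolizing cytochrome P450, had a log2 fold change of 0.40 (limma adjusted p = 0.851) and was called higher by DESeq2 on the recovered reads (adjusted p = 0.0324). The summed hepatocyte markers overlapped between groups, at 6094535 to 6728088 in control and 6143419 to 7330004 in LKO livers. Most of this sum is Alb, so it says little of the other hepatocyte markers. Of 14 markers of stellate cells and fibroblasts, 11 were lower (50.4% of all genes), 5 at an unadjusted p under 0.05 (2.74% of all genes). Among these 5 were Acta2, Rgs5 and Col1a1, with log2 fold changes of −0.52, −0.29 and −0.61 (adjusted p = 0.548 each, limma). DESeq2 on the recovered reads called 4 of the 14, and 84 of all 17297 genes. Without LKO replicate 1, 9 of the 14 were lower, and the median log2 fold change was −0.04 in place of −0.10. Without LKO replicate 2, 941 of all 17297 genes were lower at an unadjusted p under 0.05, against 474 in the main fit. Of the 14, 12 were then lower, 8 at that level, with a median of −0.18. Their summed values overlapped, at 122767 to 129474 in control and 105092 to 123209 in LKO livers. Of 12 macrophage markers, 7 were higher, with Vsig4 at 1.04 and Adgre1 at 0.15 among them and Gpnmb lower at −0.54. At an unadjusted p under 0.05 there were 4 higher (2.94% of all genes) and 1 lower (2.74%), and without LKO replicate 1 the count of higher genes was 11 of 12. Of the 8 cholangiocyte and 8 lymphocyte markers, 0 had an unadjusted p under 0.05. The part of these cells in the values of Nrp1, Vegfc or any other member was not tested.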

How the data were processed

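Liver RNA of 3 control and 3 Blnc1 LKO mice was sequenced from polyA-selected libraries. The authors used STAR (build mm10), HTSeq and DESeq2. Versions, annotation and filters are not given in the sources used here. The deposited signal is reads per gene divided by 1 size factor per liver. Columns named for wild-type and knockout livers were matched by number to the control and LKO samples.

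Linear models were fitted in limma (version 3.58.1, R 4.3.3) to log2(value + 1), with eBayes and a trend. The 17297 genes that reached a value of 1 in 3 or more livers were tested, p-values were adjusted over all of them by Benjamini-Hochberg, and the threshold was 0.05. Reads were recovered by dividing each column by its smallest value above 0, and 100% of values came out whole within 0.01. edgeR (version 4.0.16), DESeq2 (version 1.42.0) and voom were run on these reads as alternatives, with 2, 84 and 1 of 17297 genes called. Fits were tested on simulated counts. Where nothing states that livers are from separate cages or litters, p-values measure the spread between these samples. Lengths and positions came from GENCODE release M21 (GRCm38) and promoters from RefSeq. Protein identity between members was not computed.

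The members and gene lists were chosen with earlier results of these data known. Named genes are the 10 members, the relatives in the table, the 3 genes of smallest p of each list and the 5 genes most like Kdr, with exceptions named as such. The table holds 23 symbols in date form, which were kept as listed. Intervals and floors cover counting error or the spread of the livers only.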

Additional observations from a re-analysis of the deposited data

How the results depend on the processing

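The count of genes past the threshold, 1 in limma, was 2 with no filter on low values, 2 in edgeR, 84 in DESeq2 and 0 with a replicate block, and 0 to 13 when livers were left out 1 at a time. Of the members, 0 passed under every alternative run. The members at an unadjusted p under 0.05 numbered 1, and 0 in limma without the trend. They numbered 0 to 2 with each liver left out in turn. There were 0 without control replicate 1, Flt4 and Vegfb without LKO replicate 2, and Flt4 and Nrp1 without control replicate 2. The genes at that level ranged from 665 to 1845 with each liver left out, and members lower in LKO livers from 6 to 8.

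Same-numbered livers showed no sign of pairing. Their deviations from the group means correlated at −0.080, −0.0055 and −0.12 over 12488 genes, and no liver correlated best with its own number. The deviations of a group sum to 0 for each gene, so this check cannot exclude a shared cage, litter or batch. With the replicate block, limma called 0 genes and 0 members, with Flt4 as the only member at an unadjusted p under 0.05.

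When 1 liver was omitted, log2 fold changes ranged from −0.35 to −0.18 for Flt4, −0.24 to −0.07 for Vegfb, −0.19 to −0.11 for Vegfc, 0.10 to 0.23 for Nrp1, 0.01 to 0.08 for Vegfa, −0.29 to −0.11 for Angpt2 and −0.10 to −0.02 for Tek. Those that changed sign were Pgf (−0.57 to 0.087), Flt1 (−0.053 to 0.030), Kdr (−0.066 to 0.010), Angpt1 (−0.22 to 0.091), Angpt4 (−0.61 to 0.50, and 0.026 in edgeR and 0.0028 in DESeq2), Figf (−0.10 to 0.14), Nrp2 (−0.046 to 0.011), Ptprb (−0.053 to 0.065), Plxna1 (−0.12 to 0.024), Sema3b (−0.30 to 0.053), Sema3c (−0.25 to 0.063), Sema3d (−0.065 to 0.16), Sema3f (−0.18 to 0.029) and Sema3g (−0.84 to 0.46). The ratios ranged from −0.38 to 0.073 for Angpt2/Angpt1, −0.033 to 0.069 for Flt1/Kdr, −0.63 to 0.013 for Pgf/Vegfa, and 0.07 to 0.18 for Kdr/Pecam1.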

Other observations

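Further ratios, chosen after the values of the members were seen and therefore given without a test, set Flt4 beside other endothelial genes of the same liver. Flt4 relative to Flt1 was 6.50, 5.27 and 5.34 in control and 4.08, 5.01 and 4.99 in LKO livers, and these values did not overlap. Flt4 relative to Pecam1 overlapped, at 1.84, 1.62 and 1.61 in control and 1.38, 1.69 and 1.59 in LKO livers. Flt4 relative to Kdr overlapped too, at 1.338, 1.207 and 1.198 in control and 0.847, 1.201 and 1.106 in LKO livers. Flt4 relative to Lyve1 had the opposite direction, at 2.11, 2.30 and 1.81 in control and 2.59, 2.93 and 2.09 in LKO livers, with overlap. Tie1 relative to Tek overlapped, from 1.42 to 1.47 in control and from 1.30 to 1.49 in LKO livers. Flt1 relative to Pecam1 was 0.282, 0.307 and 0.301 in control and 0.338, 0.338 and 0.318 in LKO livers, without overlap. Tek relative to Pecam1 ranged from 0.4676 to 0.4895 in control and from 0.4887 to 0.5273 in LKO livers, with overlap, as control replicate 1 lay above LKO replicate 2. Nrp1 relative to Kdr ranged from 2.02 to 2.55 in control and from 2.43 to 2.59 in LKO livers, with control replicate 2 among the LKO livers.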
